A study of Mus musculus with 12 samples.

Results

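The neuronal exocytosis and stathmin genes described here are 8 genes of regulated secretion and of neuronal identity: Stmn2, Stmn3, Snap25, Syt1, Syp, Uchl1, Stx1a and Vamp2. They were taken by symbol from the platform's table of probes and genes, which names 18617 genes, and each of the 8 had 1 probe. The set was chosen by gene function and with the ratios of the 6 pairs already known, Stmn3 among them, so the mean ratios of the members below are a description and carry no test. Of the 8 members, 7 had values in enough pairs to enter the fit across all features, and Uchl1 did not.

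Adrenal RNA of mice carrying a Ftz-F1 transgene was hybridized on 2-colour arrays against adrenal RNA of wild-type littermates matched for sex and age. Ftz-F1 is the older name of Nr5a1, the gene of the steroidogenic nuclear receptor SF-1. All transgenic mice came from 1 transgenic line, and their samples are marked YAC in the labels. There were 3 pairs of 4-month-old mice whose transgenic member had 2 transgene copies (pair 1, male, pair 3, male, and pair 5, female) and 3 pairs of 10-day-old mice with 1 copy (pair 11, male, pair 13, male, and pair 15, female), each named by the number of its transgenic mouse. Each pair had 2 arrays of opposite dye assignment, so 12 arrays of 25344 probes stand for 6 independent comparisons, and age and copy number cannot be told apart.

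Values are log2 ratios of the transgenic and the wild-type sample after removal of the dye trend of each array, with the sign left as deposited. The sources used here do not say which of the samples is on top. A positive ratio means a higher level in the transgenic gland if it is transgenic over wild type, and a lower one if it is the inverse. Nr5a1 itself, the gene carried by the transgene, had ratios of -0.46, 0.11 and -0.22 in the 4-month pairs 1, 3 and 5 and of -0.57, -0.65 and -0.79 in the 10-day pairs 11, 13 and 15. It was negative in 5 of 6 pairs, so under the reading transgenic over wild type this probe would show less Nr5a1 signal in the transgenic glands. Which sequence the Nr5a1 probe covers is not known here, so its sign does not settle the direction. As a check of the tissue, the probes of the cortical genes Star and Cyp11a1 and of the medullary gene Chgb lay at the 98.6th, 98.3rd and 97.1st percentile of probe signal, which also depends on the probe. Probe signal here was recovered from the deposited ratios and can lie below the true signal.

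Chromaffin cells of the adrenal medulla release catecholamines by fusing dense-core granules with the plasma membrane. The core SNARE proteins of this fusion are shared with the neuronal synapse. Vamp2 on the vesicle pairs with Stx1a and Snap25 on the plasma membrane in the SNARE complex, and Syt1 is a calcium sensor that triggers fusion. Syp is a membrane protein of small vesicles. Stmn2 and Stmn3 are neuronal members of the stathmin family, which bind tubulin and regulate microtubules, and Uchl1 is an abundant ubiquitin hydrolase of neurons and neuroendocrine cells.

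Promoter sequences from RefSeq (build GRCm38.p6) were found for 5 of the 8 members, Stmn3, Syt1, Syp, Uchl1 and Stx1a, in 6 windows of 250 bases before to 50 bases after a start site, since Syt1 had 2 start sites. The 250 bases before the start site are printed for the gene with the largest mean ratio among the members, Stmn3, for Syt1 at its upstream start site, which like Stmn3 was positive in every pair, and for Stx1a, which was negative in every pair. Capitals mark the GC box (GGGCGG) and the CCAAT box (CCAAT), read on both strands. The Stmn3 window lies at chr2:181314501-181314750 on the minus strand, the Syt1 window at chr10:109010976-109011225 on the minus strand and the Stx1a window at chr5:135023232-135023481 on the plus strand.
Stmn3: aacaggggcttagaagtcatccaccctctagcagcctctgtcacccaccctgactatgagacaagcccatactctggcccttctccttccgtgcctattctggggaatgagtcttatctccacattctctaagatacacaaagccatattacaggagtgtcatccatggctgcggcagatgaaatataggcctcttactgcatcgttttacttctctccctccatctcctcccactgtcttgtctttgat
Syt1: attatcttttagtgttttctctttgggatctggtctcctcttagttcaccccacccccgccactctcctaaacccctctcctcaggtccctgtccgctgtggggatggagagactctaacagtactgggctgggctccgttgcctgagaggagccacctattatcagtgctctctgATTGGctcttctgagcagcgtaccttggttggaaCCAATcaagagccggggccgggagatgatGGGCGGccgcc
Stx1a: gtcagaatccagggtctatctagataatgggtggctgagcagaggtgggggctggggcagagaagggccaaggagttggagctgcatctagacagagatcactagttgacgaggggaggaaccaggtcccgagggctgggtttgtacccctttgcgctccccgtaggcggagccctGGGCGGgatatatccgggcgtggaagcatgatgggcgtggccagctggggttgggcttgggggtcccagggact

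The Stmn3 window held neither box, the Syt1 window held both and the Stx1a window held the GC box. Over the 6 windows of the members, 3 held a GC box, against 35.7% of the 32851 windows in the table, and 1 held a CCAAT box, against 37.4%. None of the 6 held an SF-1 site searched as CAAGGTCA or CAAGGCCA, which 3.92% of all windows hold. None held a cAMP response element (TGACGTCA, 1.79% of all windows) or a half-site of the RE1 element bound by the neuronal repressor REST, searched as TTCAGCACC (0.371%) and GGACAGC (6.56%). A match is a run of letters and not a shown binding site, and the windows cover only the bases next to the start sites.

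Among the stathmins, Stmn3 had the ratio farthest from 0 of all members. In the 4-month pairs 1, 3 and 5 it was at 0.79, 0.67 and 0.90, and in the 10-day pairs 11, 13 and 15 at 1.23, 0.62 and 0.81. The mean was 0.84 ± 0.22 (SD, n = 6), a ratio of 1.79, and the groups overlapped, with the 10-day pair 11 highest and the 10-day pair 13 lowest. It was higher than at least 97.4% of all features in each of the 6 pairs, and rank 23 of 21513 by mean ratio. In bulk tissue a change in the number of cells of a type cannot be told apart from a change of RNA per cell.

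Stmn3 was positive on 12 of 12 arrays, as were 1.27% of the 20356 features measured on all of them. The 2 arrays of a pair still differed in size. With the transgenic sample in Cy5 the values were 1.46, 0.88 and 0.78 in the 4-month pairs 1, 3 and 5 and 1.46, 0.73 and 0.82 in the 10-day pairs 11, 13 and 15. With the transgenic sample in Cy3 they were 0.13, 0.46 and 1.03 in the 4-month pairs and 1.00, 0.51 and 0.80 in the 10-day pairs. Pair 1 had the widest gap for this gene, 1.46 against 0.13, so its pair value rests largely on 1 array.

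Stmn2, the other neuronal stathmin among the members, was at 0.13, 0.75 and -0.02 in the 4-month pairs 1, 3 and 5 and at 0.30, 0.31 and 0.20 in the 10-day pairs 11, 13 and 15. Its mean was 0.28 ± 0.26 (SD, n = 6), close to its spread, and 0.16 without pair 3, the highest. Stmn2 was above 66.9%, 98.1% and 47.4% of all features in the 4-month pairs 1, 3 and 5 and above 85.0%, 92.5% and 79.6% in the 10-day pairs 11, 13 and 15. The 10-day pairs lay inside the range of the 4-month pairs.

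The other members of the family on the array were Stmn1 and Stmn4, the latter a further neuronal form. Stmn1 was at 0.61, 0.39 and 0.25 in the 4-month pairs 1, 3 and 5 and at 0.67, 0.28 and -0.15 in the 10-day pairs 11, 13 and 15. Stmn4 was at -0.21, 0.04 and 0.15 in the 4-month pairs and at -0.35, -0.19 and -0.13 in the 10-day pairs. Neither passed the threshold of adjusted p = 0.05 over all features in limma, with adjusted p = 0.232 for Stmn1 and 0.531 for Stmn4 over the 6 pairs. The 4 stathmins thus spanned mean ratios from -0.11 for Stmn4 to 0.84 for Stmn3.

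**Figure D1:**
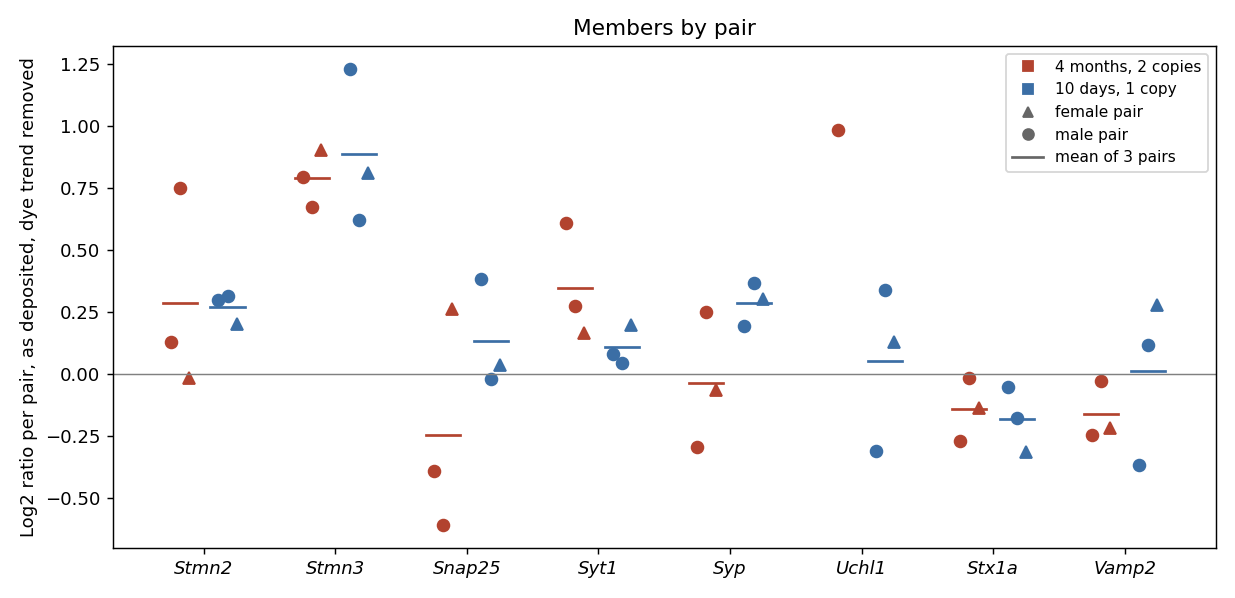
Log2 ratio of each pair (y axis, as deposited, dye trend removed) for the 8 members (x axis), with 4-month pairs in red left of 10-day pairs in blue, female pairs as triangles, male pairs as circles and lines for the mean of 3 pairs. Stmn3 lies between 0.62 and 1.23 in all 6 pairs, while Snap25, Syp and Vamp2 lie on both sides of 0, and Uchl1 has 4 pair values, the highest 0.98 in pair 3.

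The SNARE proteins of the fusion complex had mean ratios below 0, but for Snap25 and Vamp2 the mean was smaller than its spread. Snap25 was at -0.39, -0.61 and 0.26 in the 4-month pairs 1, 3 and 5 and at 0.38, -0.02 and 0.03 in the 10-day pairs 11, 13 and 15, positive in 3 of 6 pairs, with a mean of -0.06 ± 0.38 (SD, n = 6). Pair 3, the lowest, joined arrays of opposite sign, 0.27 with the transgenic sample in Cy5 and -1.49 with it in Cy3. Without pair 3 the mean was 0.03.

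Stx1a, the plasma membrane syntaxin, was negative in every pair but small, at -0.27, -0.02 and -0.14 in the 4-month pairs 1, 3 and 5 and at -0.05, -0.18 and -0.31 in the 10-day pairs 11, 13 and 15. Its mean was -0.16 ± 0.12 (SD, n = 6). The sign was carried by the arrays with the transgenic sample in Cy5, which ran from -0.71 to -0.06 and were negative on 6 of 6. Those with it in Cy3 ran from -0.27 to 0.17 and were positive on 4 of 6.

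Vamp2, the vesicle SNARE, was at -0.25, -0.03 and -0.22 in the 4-month pairs 1, 3 and 5 and at -0.37, 0.12 and 0.28 in the 10-day pairs 11, 13 and 15. The mean of -0.08 ± 0.24 (SD, n = 6) was smaller than its spread and turned to 0.02 without pair 11. The 4-month pairs lay inside the range of the 10-day pairs. The mean over the Cy5 arrays was -0.05 and that over the Cy3 arrays -0.10.

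The calcium sensor and the vesicle protein differed in how far the dyes agreed. Syt1 was positive in all 6 pairs, at 0.61, 0.27 and 0.16 in the 4-month pairs 1, 3 and 5 and at 0.08, 0.04 and 0.20 in the 10-day pairs 11, 13 and 15. Its mean was 0.23 ± 0.20 (SD, n = 6), and 11 of 12 arrays were positive. With the transgenic sample in Cy3 the values ran from 0.15 to 0.51. With it in Cy5 pair 1 was at 0.71, and pairs 3, 5, 11, 13 and 15 were at 0.03, 0.08, 0.01, -0.18 and 0.04. The positive sign outside pair 1 thus rests mainly on the Cy3 arrays. Pair 1 was the highest, and the groups overlapped through pairs 5 and 15. Its probe was dim, at the 24.8th percentile of probe signal.

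Syp was at -0.29, 0.25 and -0.07 in the 4-month pairs 1, 3 and 5 and at 0.19, 0.37 and 0.30 in the 10-day pairs 11, 13 and 15, with a mean of 0.13 ± 0.25 (SD, n = 6). The mean was 0.05 without pair 3 and 0.19 without pair 1. These pair values average arrays that disagree. With the transgenic sample in Cy5 the values ran from -0.13 to 1.09 and 5 of 6 were positive, and with it in Cy3 they ran from -0.49 to -0.03 and 0 of 6 were positive. The Cy5 arrays were higher by 0.85 on average, a gap that 5.5% of the 20356 features reached or passed. The dye orientations also differ in the date their descriptions give, so dye and date cannot be told apart.

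Uchl1 had no value in Cy5 for the 4-month pairs 1 and 5, which left pair 3 at 0.98, against -0.31, 0.34 and 0.13 in the 10-day pairs 11, 13 and 15. The Cy3 arrays of pairs 1 and 5 alone gave 0.66 and -0.26. Its probe was the dimmest of the members, at the 7.69th percentile of probe signal, and no group mean is given for the 4-month pairs.

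**Figure D2:**
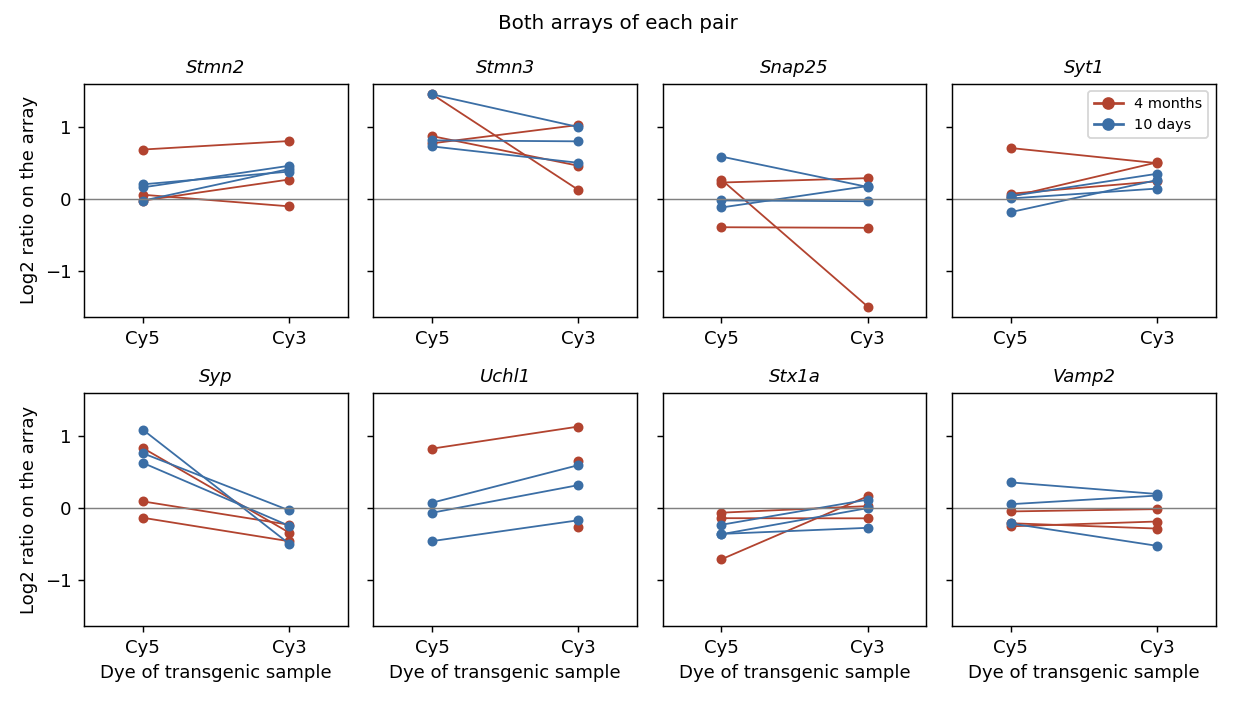
Log2 ratio on each array (y axis) with the transgenic sample in Cy5 (left) and in Cy3 (right), 1 panel per member and 1 line per pair, red for 4 months and blue for 10 days; single points lack the other array. Stmn3 is above 0 on all 12 arrays, Syp is below 0 on all 6 Cy3 arrays and above 0 on 5 of 6 Cy5 arrays, and the Cy3 array of pair 3 sets the low value of Snap25.

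In all, 3 of the 7 members with 6 pair values (Stmn3, Syt1 and Stx1a) kept the same sign in every pair, as did 10.4% of 20356 features. Means over all 6 pairs were positive for 4 of the 7, against 47.1% of all 21513 features, with a median of 0.13 over the 7 members and -0.01 over all features. The median of the members was 0.05 without pair 3, 0.03 without the dimmest probes and -0.02 with only the Cy3 arrays. Over all 6 pairs 1 of the 7, Stmn3, was among the 0.0558% of features past the threshold in limma, and 0 of the 7 were with any 1 of the 6 pairs left out. Since the members were chosen with this contrast known, the counts of this paragraph are a description and no test of them. At 4 months 0 of the 7 passed, as did 0% of features, with 2 of the 7 and 12.3% of features at an unadjusted p under 0.05. At 10 days 0 of the 7 passed, as did 0% of features, with 2 of the 7 and 8.34% of features at an unadjusted p under 0.05.

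Whether the ratios depended on age and copy number was tested for each member as the 4-month minus the 10-day mean in limma. None of the 7 members passed, with the threshold applied over all 21513 features, of which 0% passed and 4.56% had an unadjusted p under 0.05; 0 of the 7 members had one. Syp came closest, at -0.04 ± 0.27 at 4 months and 0.29 ± 0.09 at 10 days (SD, n = 3 each), a difference of -0.32 with a 95% interval from -0.72 to 0.08 (limma, unadjusted p = 0.0979, adjusted p = 0.933). Snap25 was at -0.25 ± 0.45 at 4 months and 0.13 ± 0.22 at 10 days (SD, n = 3 each), a difference of -0.38 with an interval from -0.94 to 0.18. Syt1 was at 0.35 ± 0.23 at 4 months and 0.11 ± 0.08 at 10 days (SD, n = 3 each), a difference of 0.24 with an interval from -0.13 to 0.61. With each pair left out in turn, the difference ran from -0.47 to -0.20 for Syp (the smallest without pair 1), from -0.63 (without pair 5) to -0.20 (without pair 3) for Snap25 and from 0.11 (without pair 1) to 0.33 for Syt1.

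For Stmn3 the 4-month mean was 0.79 ± 0.12 and the 10-day mean 0.89 ± 0.31 (SD, n = 3 each), and the difference of -0.10 had an interval from -0.53 to 0.33 and was 0.07 without pair 11. The 4-month and 10-day pairs overlapped for 7 of 7 members with 6 pair values, so 0 of them were separated by age, against 10.4% of features. The intervals are wide: for Stmn2 (0.02, from -0.47 to 0.51), Stx1a (0.04, from -0.30 to 0.38) and Vamp2 (-0.17, from -0.62 to 0.27) they include differences larger than the mean ratios of these genes. The sign of the difference turned for Stmn2 without pair 3 (-0.22) or pair 15 (-0.02) and for Stx1a without pair 3 (-0.02) or pair 15 (-0.02).

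**Figure D3:**
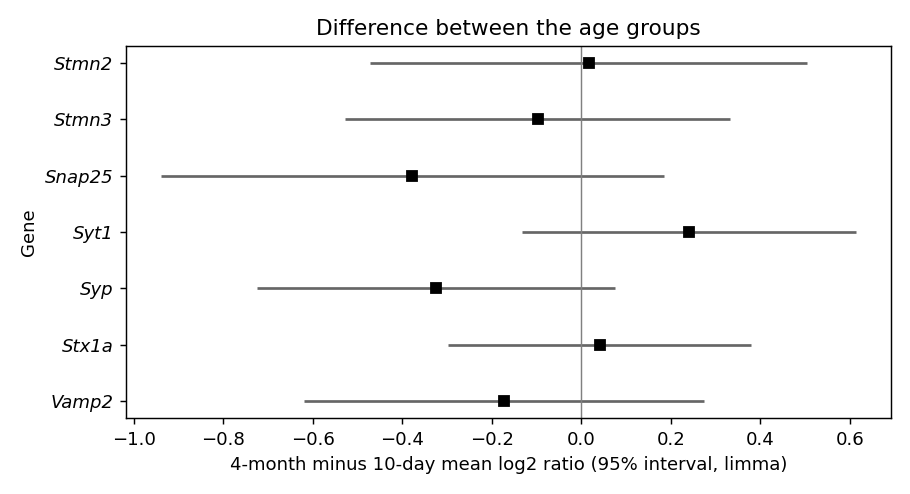
Difference of the 4-month minus the 10-day mean log2 ratio (x axis, squares) with 95% intervals from limma (lines) for the 7 tested members (y axis). All 7 intervals include 0, and Snap25 has the widest, from -0.94 to 0.18.

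The female minus male difference, from 2 female and 4 male pairs with age group in the model, was also not past the threshold for any of the 7 members, with 0% of 21504 features past it and 5.76% at an unadjusted p under 0.05. The differences ran from -0.28 for Stmn2 (95% interval from -0.79 to 0.22) to 0.31 for Snap25 (from -0.27 to 0.89), and Stmn3 was at 0.03 (from -0.47 to 0.53). With each pair left out in turn they ran from -0.46 to -0.11 for Stmn2, from -0.15 to 0.76 for Snap25 and from -0.11 to 0.18 for Stmn3, and the sign turned in at least 1 case for each of the tested members except Stmn2.

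Other genes of exocytosis and neurons, in 6 lists of 111 tested genes, were evenly split. Over all 6 pairs 55 had a positive and 56 a negative mean ratio, and their median was -0.00. In limma 0 passed over all features, whereas Stmn3 lay above each of the 111. The highest was Nrsn1, a neuronal membrane protein, at 0.70 ± 0.22 (SD, n = 6) and positive on 12 of 12 arrays. Rab3c, a vesicle GTPase, at 0.58 ± 0.17, and Dnajc5, a vesicle chaperone, at 0.44 ± 0.26 (SD, n = 6 each), were the others positive on every array.

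The SNARE list beyond the members had 20 tested genes, 7 positive and 13 negative, with a median of -0.01. Its ends were Vamp5 at -0.40 ± 0.44 and Stx6 at -0.19 ± 0.24, and Stx12 at 0.29 ± 0.19 and Stx3 at 0.25 ± 0.25 (SD, n = 6 each). The 29 regulators of SNAREs and of vesicle priming had 12 positive and 17 negative genes and a median of -0.04, from Unc13d, a priming factor, at -0.51 ± 0.89 (SD, n = 5) and Rab27b at -0.33 ± 0.28 (SD, n = 6) to Rab3b at 0.35 ± 0.39 (SD, n = 6) and Rab3c. Both lists thus lay at the median of all features, -0.01, or close below it.

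Of the 16 other synaptotagmins, 11 were positive and 5 negative, with a median of 0.11, between Syt11 at -0.21 ± 0.84 and Syt2 at -0.09 ± 0.21, and Syt5 at 0.27 ± 0.26 and Syt10 at 0.25 ± 0.26 (SD, n = 6 each). The 17 other vesicle membrane genes had 9 positive and 8 negative genes and a median of 0.02. They ended in Scamp1 at -0.18 ± 0.33 and Sv2b at -0.13 ± 0.09, and in Dnajc5 and Syngr1, a relative of Syp, at 0.69 ± 0.49 (SD, n = 6 each). Syngr1 was at 0.90, 1.44 and 0.62 in the 4-month pairs 1, 3 and 5 and at 0.80, -0.00 and 0.38 in the 10-day pairs 11, 13 and 15. The 27 other neuronal genes had 15 positive and 12 negative genes and a median of 0.03, with Prph, a filament of peripheral neurons, at -0.27 ± 0.07, Thy1 at -0.24 ± 0.64 and Crmp1 at 0.36 ± 0.18 (SD, n = 6 each). Prph was negative in 6 of 6 pairs and positive on 1 of 12 arrays.

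The chromaffin markers stood beside these lists with 19 of 21 tested genes positive, against 47.1% of all features. The median of the chromaffin markers was 0.37. Of them Gal, Scg5 and Pcsk1, 3 genes in all, passed in limma, as did 0.0558% of all features. With pair 1, 3, 13 or 15 left out, or with median centring, 0 features passed, these 3 included. This positive direction of the chromaffin genes was known before the list was drawn up. Stmn3, at 0.84, lay within the upper range of that list, beside Scg5 at 0.79 ± 0.15 and below Pnmt at 1.15 ± 0.44 and Gal at 1.20 ± 0.30 (SD, n = 6 each). In pair 11, where Stmn3 was highest at 1.23, the median of the chromaffin list was -0.01, while in the other pairs it ran from 0.28 in pair 1 to 0.74 in pair 15. Single genes of the chromaffin list ran from -1.22 to 1.89 in pair 11. At the low end of that list stood the granins Chga at -0.17 ± 0.26, whose probe was near the limit of the scanner, and Chgb at -0.02 ± 0.14 (SD, n = 6 each). Of the 11 tested cortex markers 4 were positive and 7 negative, with a median of -0.05, from Cyp21a1 at -0.99 ± 2.25 and Nr5a1 at -0.43 ± 0.33 to Cyp11a1 at 0.38 ± 0.81 and Fdx1 at 0.38 ± 0.52 (SD, n = 6 each). The pair medians of the cortex markers ran from -0.54 in pair 11 to 0.58 in pair 3.

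**Figure D4:**
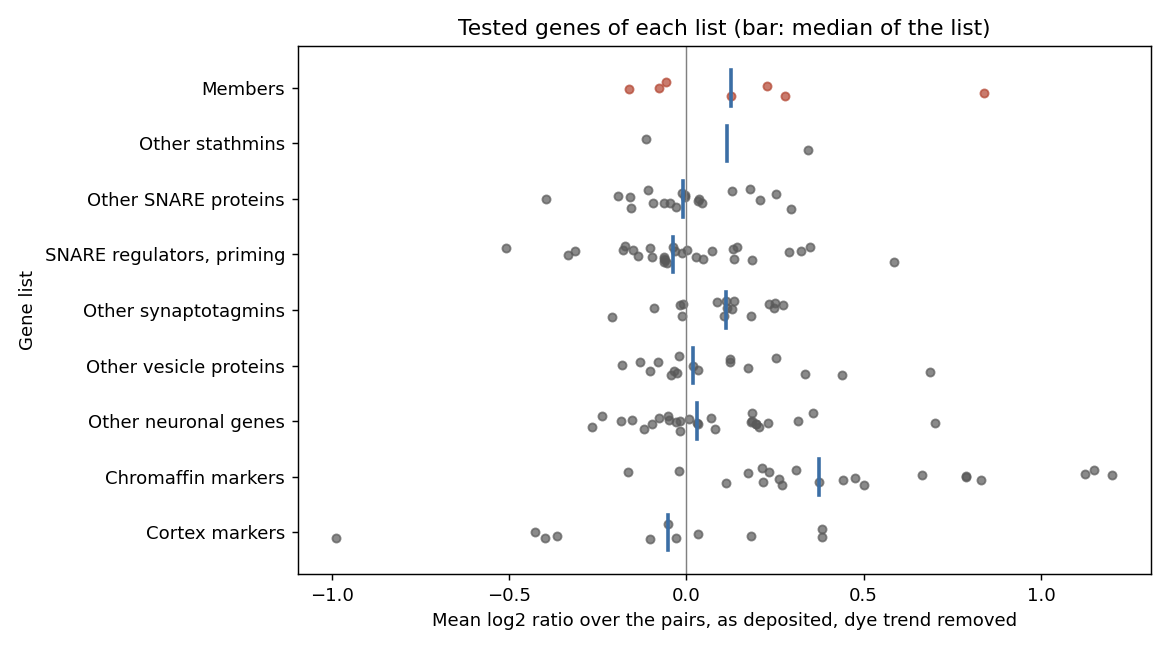
Mean log2 ratio over the pairs (x axis, as deposited, dye trend removed) of each tested gene (points) of the members, in red, and of other gene lists (y axis), with the median of each list as a blue bar. Stmn3 at 0.84 lies above the other tested members and above every gene of the exocytosis lists, whose medians lie between -0.04 and 0.11, and within the range of the chromaffin markers, whose median is 0.37.

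Marker lists of other cells stood far from 0 in some pairs. The median of the macrophage markers was below 0 in all 4-month pairs, though in pair 1 it was -0.19 and single markers reached 0.24. Over all 6 pairs 7 of 8 hepatocyte, 4 of 7 adipocyte, 1 of 8 lymphocyte and 0 of 8 macrophage markers were positive, against 47.1% of all features. At 4 months 1 of 8 lymphocyte and 0 of 8 macrophage markers were positive, against 48.0% of all features. At 10 days 4 of 8 lymphocyte and 6 of 8 macrophage markers were, against 48.6%. In limma 0 of these markers passed. Hepatocyte markers had a median of 1.44 in pair 11, the pair with the highest Stmn3 and Snap25, and between 0.05 and 0.49 in the others. Lymphocyte markers had a median of -1.86 and macrophage markers of -1.52 in pair 3, the pair with the highest Stmn2 and the lowest Snap25. In pair 15 adipocyte markers had a median of 0.61 and macrophage markers of 0.64. Schwann and glial markers had 3 positive and 4 negative tested genes, with pair medians from -0.22 to 0.19. The part of these other cells in the members' values was not tested. With pairs 3, 11 and 15 left out together Stmn3 was at 0.73. This subset cannot separate Stmn3 from these cells, since it keeps pair 5, where the macrophage median was -0.69.

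The members did not vary together across arrays. With the mean of each dye orientation subtracted, 9 of the 21 combinations of the 7 members had a positive Pearson r over the 12 arrays, with a range from -0.70 (Syt1 with Syp) to 0.49 (Syp with Vamp2) and a median of -0.12. These 12 points are 6 pairs measured on 2 arrays each. For Stmn3 the nearest member was Snap25 (r = 0.39), which stood at rank 2336 of 17047 genes, and Stmn2 was at r = -0.29. The genes whose profile came closest to the mean of the 7 members were Nfe2l3 (r = 0.90), Chml (0.90), Pum3 (0.89), Sowahb (0.88) and Ankar (0.86), chosen as the 5 highest of 17041 genes. None of these 5 is in the lists used here, and their mean ratios lay between -0.06 and 0.08.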

How the data were processed

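The authors deposited 1 log2 ratio per probe and array, per the file headers, and the values are on base 2 as tested on the file. Background correction, normalization and the direction of the ratio: not given in the sources used here. Array medians as deposited lay between 0.74 and 1.50 for transgenic RNA in Cy5 and between -0.68 and -0.22 for transgenic RNA in Cy3, so the values were not centred. Both arrays of one pair had a Pearson r of -0.50 to -0.09 as deposited and of 0.23 to 0.66 with the mean of each dye orientation subtracted, so both orientations were taken to run the same way and no sign was turned. A loess curve (span 0.3) over probe signal, recovered for 24641 probes as the whole-number ratios behind the Cy3 arrays, was subtracted per array. These ratios were in lowest terms, so a factor shared by both channels is lost and the signal can lie below the true one. Values were averaged over the probes of a gene, then over both arrays of each pair. limma 3.58.1 in R 4.3.3 was fitted to all 21513 features with at least 2 pairs in each age group, with Benjamini-Hochberg adjustment over all of them and a threshold of 0.05. The code of the fit was also run on simulated data, and no result given here rests on that run. The number of arrays limits the precision. Named in the lists were the genes past the threshold and the 2 most positive and 2 most negative by mean, and values of the marker lists of other cells are given as counts and medians. The members and lists were chosen with earlier results of these data known. Alternatives were other normalizations, single dye orientations, filters on dim or bright probes, other probe rules, an ordinary linear model, 1 mean over the 6 pairs and each pair left out. Leaving out pairs 3, 11 and 15 together was chosen after seeing the data.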

Additional observations from a re-analysis of the deposited data

How the results depend on the processing

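The mean of Stmn3 stayed positive under all 16 alternatives, from 0.66 to 1.02, but under 10 of them it was no longer past the threshold. Over all 6 pairs 12 features and 1 member passed. The number of features was 0 with median centring, 1411 with only the Cy3 arrays, 3439 with only the Cy5 arrays, 1 with an ordinary linear model, 38 with 1 mean over the 6 pairs, 0 without pairs 3, 11 and 15, and 0 to 15 with each pair left out. The number of members was 2 with only the Cy5 arrays (Stmn3 and Syp, 0.55), and 0 with median centring, without the dimmest probes (which also removed Syt1), with the ordinary model, without pairs 3, 11 and 15, and without any 1 pair. Single orientations keep the dye effects of probes. At 4 months 0 features passed, against 288 with the Cy3 arrays, 915 with the Cy5 arrays (1 member) and 0 to 5 with each pair left out. At 10 days 0 passed, against 31 with the Cy3 arrays, 222 with the Cy5 arrays and 0 to 1 with each pair left out. For the female minus male difference 0 passed, against 1 with the ordinary model and 0 to 3 with each pair left out, and it could not be fitted without pairs 3, 11 and 15. The 4-month minus 10-day difference had 0 features and 0 members under all 15 alternatives. The mean of Syp was -0.30 with the Cy3 arrays only, and Snap25 and Vamp2 turned positive, Snap25 without pair 3 (0.03) and with the Cy5 arrays only (0.10) and Vamp2 without pair 11 (0.02). No paired analysis was possible because the age groups share no replicate numbers, and each ratio already compares the mice of a pair. With 3 pairs in each age group, dim probes such as those of Uchl1 and Syt1 limit what can be detected.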
